A study of Homo sapiens with 8 samples.

Results

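The shelterin genes were followed at their promoters in a FAIRE-seq series of U2OS cells, a human osteosarcoma line that keeps its telomeres without telomerase, by recombination. The members were chosen by name as the 6 genes of the shelterin complex: TERF1, TERF2, TERF2IP, TINF2, ACD and POT1, of 19962 protein-coding genes annotated on chromosomes 1 to 22 and X. FAIRE-seq extracts DNA that is not held by nucleosomes, so its peaks lie at accessible sites. Chromatin was taken from 2 wild-type clones (WT_4 and WT_5) and 2 ZBTB48 knockout clones (KO_C5 and KO_D2), each left untreated or given 250 U/ml IFNγ, for 24 h by the labels (one legend of the study gives a longer time). This made 4 groups of 2 libraries, each library from a different clone in its group and every cell in it of U2OS origin. Each genotype therefore rested on 2 clones, and an effect of the deletion cannot be told apart from other differences between clones. In bulk chromatin, fewer cells with an open site and less opening in each cell cannot be told apart either.

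Shelterin covers the TTAGGG repeats at chromosome ends and hides them from the DNA damage response. TRF1 and TRF2, the products of TERF1 and TERF2, bind double-stranded repeats; RAP1 (TERF2IP) is held by TRF2; TIN2 (TINF2) bridges both to TPP1 (ACD); and POT1 binds the single-stranded overhang. ZBTB48, also called TZAP, binds the same double-stranded repeats and is also a transcription factor at some promoters. A promoter peak says that a start site is accessible, and says nothing of the amount of RNA or protein.

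Each deposited list held between 16730 and 37533 peaks on these chromosomes, the fewest in KO_untreated replicate 2 and the most in WT_IFNg replicate 2. Replicate 1 was WT_4 or KO_C5, and replicate 2 was WT_5 or KO_D2. Since the lists differed in length and depth, the strength of a peak was given as its percentile by p-value in its own list (100 is the strongest). The libraries' lowest background, a measure that rises with depth, ran from 0.621 to 1.08 fragments. MTFP1, a gene that ZBTB48 is known to activate, had a promoter peak in 3 of 4 WT libraries and in 1 of 4 KO libraries, KO_IFNg replicate 1. Peak lists hold no reads of the edited exons, so the deletion itself was not checked here. Among the osteoblast markers, RUNX2, SP7 and COL1A1 had a promoter peak in all 8 lists and COL1A2, SPP1 and IBSP in none. Of markers of other cells, PTPRC, CD3E, PECAM1 and ALB had none, and the epithelial genes EPCAM and KRT18 had a peak in all 8.

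All 6 shelterin genes had a peak within 1 kb of an annotated start site in every one of the 8 lists. Of all protein-coding genes, 52.1% had one in all 8 (10392 genes), and these are called the tested genes in what follows. No shelterin gene lost or gained its promoter peak with genotype or with IFNγ. The weakest of the 48 promoter peaks was that of POT1 in KO_untreated replicate 1, with 29 fragments over its summit, and the highest pileup was that of TERF1 in WT_IFNg replicate 2, with 220. The percentiles of the 6 genes, library by library, are plotted next.

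**Figure D1:**
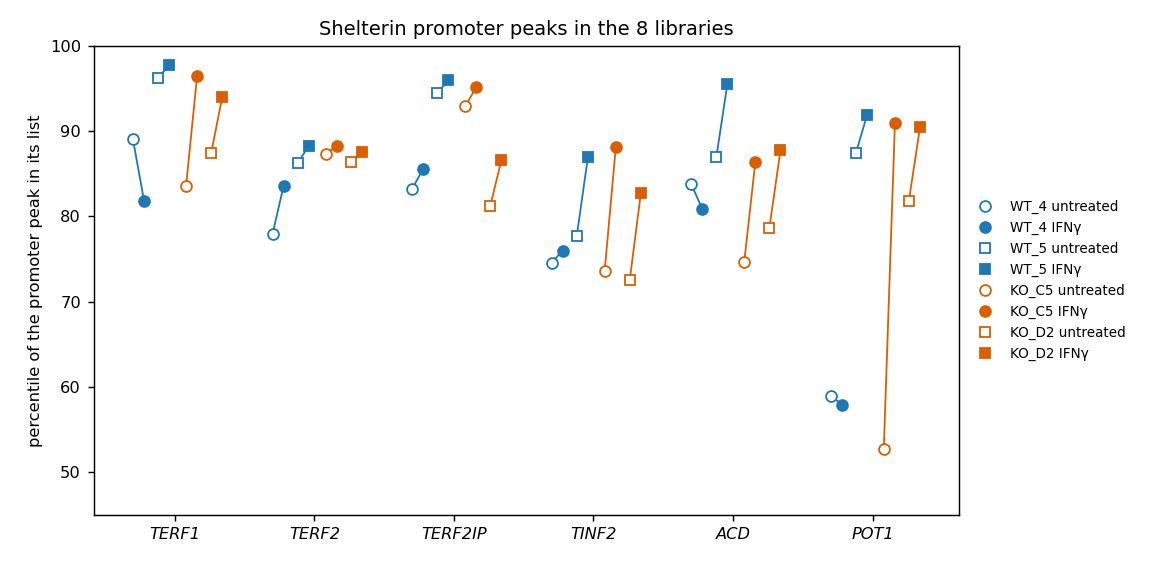
Percentile of the promoter peak in its own list (y axis, 45 to 100) for each shelterin gene (x axis); every point is 1 library, a line joins the untreated (open) and IFNγ (filled) library of a clone, WT in blue and KO in orange. WT and KO points overlap for every gene, and POT1 spans 52.7 to 91.9.

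Promoter windows from RefSeq (GRCh38.p14), 250 bases before to 50 after a start site, were matched for TERF2IP, TINF2, ACD and POT1. TERF1 and TERF2 were not matched. The windows were searched on both strands for TTAGGG and its reverse complement CCCTAA, the telomeric hexamer that ZBTB48 binds, and for GTGAGT and its reverse complement ACTCAC as a control hexamer. No window of the 4 genes held TTAGGG, which is found in 9.05% of 34961 promoter windows of the same length. The CIITA promoter site that the study crystallised with ZBTB48 is contacted at a GGG and holds no TTAGGG. This search therefore cannot tell whether ZBTB48 binds these windows. The ACD window held 1 of the 8 ACD summits, so the upstream opening that carried the other 7 was not searched. GTGAGT was found 1 time each in the TERF2IP and POT1 windows, and in 12.8% of all windows. The windows were 60.3% to 70% G or C, against a median of 58.7% over all windows. The letters of the POT1 and TINF2 windows follow, because these genes had the largest and the smallest difference between genotypes among the 4. Both are on the minus strand, POT1 at chr7:124929776-124930075 and TINF2 at chr14:24242625-24242924. Capitals mark the stretch in which the summits lay: all 8 of POT1 (66 bases) and 5 of the 8 of TINF2 (41 bases).
POT1: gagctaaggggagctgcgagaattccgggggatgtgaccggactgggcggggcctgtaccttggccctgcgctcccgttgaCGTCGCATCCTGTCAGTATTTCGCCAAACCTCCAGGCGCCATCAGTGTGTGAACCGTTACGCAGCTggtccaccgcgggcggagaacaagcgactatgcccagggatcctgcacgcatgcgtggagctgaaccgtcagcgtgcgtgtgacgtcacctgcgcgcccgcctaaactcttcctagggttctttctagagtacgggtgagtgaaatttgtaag
TINF2: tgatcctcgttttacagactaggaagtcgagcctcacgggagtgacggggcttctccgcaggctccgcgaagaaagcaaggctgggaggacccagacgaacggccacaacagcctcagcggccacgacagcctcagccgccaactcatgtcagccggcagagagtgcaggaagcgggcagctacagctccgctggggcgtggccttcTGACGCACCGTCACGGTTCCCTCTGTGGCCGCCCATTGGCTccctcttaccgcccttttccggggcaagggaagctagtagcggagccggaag
The capitals of POT1 lie before the RefSeq start site of the window, within 15 bp of other start sites in GENCODE, and those of TINF2 lie right before the start site of theirs. In TINF2 the other 3 summits lay downstream of the window, as described with that gene.

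TERF1 is on chromosome 8 (plus strand, gene at 73008856-73048123, 39268 bp), and its promoter peaks lay within chr8:73008573-73009295. The 8 summits fell within 45 bp of each other and 33 to 78 bp upstream of the nearest start site. TERF1 stood at the 89.0 and 96.3 percentiles in the 2 untreated WT libraries and at 81.8 and 97.7 after IFNγ. In KO it stood at 83.5 and 87.4 untreated and at 96.5 and 94.0 after IFNγ. Untreated, both WT clones were above both KO clones, and with IFNγ both KO clones lay between WT_4, the lowest of the 8 values, and WT_5, the highest. With every list cut to the 16730 strongest peaks (lists of equal length), untreated WT_4 (85.7) was below untreated KO_D2 (87.4). The share of the tested genes with such an order was not counted. The mean was 91.2 ± 8.20 (SD, n = 2 clones) in WT and 90.3 ± 0.498 in KO, a difference of 0.852 points (exact permutation test over clones, two-sided, p = 1). With 2 clones against 2, this test cannot give a p below 0.333.

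TERF2 is on chromosome 16 (minus strand, gene at 69355567-69408571), where an annotated start site inside the longest gene model carries the peak. The peaks spanned chr16:69385641-69386502, and all summits were within 24 bp of a start site. TERF2 gave 77.9 and 86.3 in untreated WT and 83.6 and 88.2 in WT with IFNγ. In KO it gave 87.3 and 86.4 untreated and 88.2 and 87.5 with IFNγ. Its range over the libraries was 10.3 points, the smallest of the 6 genes, but 15.1 points with lists of equal length, where TERF2IP had the smallest, 13.8. The 4 KO values exceeded 3 of the 4 WT values, the exception being WT_IFNg replicate 2, the longest list. With that list set aside, all KO above all WT held for 0.731% of the tested genes. The list set aside was the exception for TERF2 itself, so this share is a description. With lists of equal length the exception was another library. WT_IFNg replicate 2 (73.6) was then below every KO value, and WT_IFNg replicate 1 (81.5) was above KO_IFNg replicate 1 (80.7). The WT mean of 84.0 ± 4.59 and the KO mean of 87.4 ± 0.561 (SD, n = 2 clones) differed by -3.36 points (exact permutation p = 0.667).

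TERF2IP is on chromosome 16 (plus strand, gene at 75647773-75761872). Its summits were the most fixed in place, within 29 bp of each other and 16 to 45 bp upstream of the nearest start site. The same peak covered, in all 8 lists, the start site of KARS1, a lysyl-tRNA synthetase gene read in the opposite direction from 75647665, so the opening belongs to both genes. A weaker peak downstream was called separately in WT_untreated replicate 2 (75648542-75649029), KO_IFNg replicate 1 (75648545-75648764) and KO_IFNg replicate 2 (75648518-75648757), at the 31.5 to 34.3 percentiles. In WT_IFNg replicate 2, a single peak (75647262-75649074) covered both stretches. All these lists were longer (24727 to 37533 peaks) than the lists without the weaker peak (16730 to 21715). TERF2IP stood at 83.2 and 94.5 in untreated WT, 85.6 and 95.9 in WT with IFNγ, 92.9 and 81.2 in untreated KO, and 95.1 and 86.6 in KO with IFNγ. WT_5 and KO_C5 were high and WT_4 and KO_D2 low, so the genotypes overlapped. WT_5 and KO_C5 also had the longer list of their genotype under each treatment. With lists of equal length the order held, at 90.2 to 92.0 against 78.2 to 83.7. WT_5 above WT_4 in both treatments was so for 60.2% of the tested genes, and for 30.9% at equal length. The share with the whole order was not counted. Averaged by clone, TERF2IP was at 89.8 ± 7.65 in WT and 88.9 ± 7.15 in KO clones (SD, n = 2), a difference of 0.851 points with an exact permutation p of 0.667.

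TINF2 is a short gene on chromosome 14 (minus strand, gene at 24238286-24242663, 4378 bp). Its peaks lay within chr14:24242166-24243208 and also covered a start site of ENSG00000289979, a lncRNA on the other strand, in all 8 lists. The summit took 1 of 2 positions. It lay between 24242317 and 24242343 in both WT_4 libraries and in untreated KO_C5, and between 24242677 and 24242717, in the capitals printed above, in the other 5. The percentiles were 74.6 and 77.7 in untreated WT, 76.0 and 86.9 in WT with IFNγ, 73.6 and 72.6 in untreated KO, and 88.1 and 82.8 in KO with IFNγ. The 3 highest values were all from IFNγ libraries, while WT_4 with IFNγ lay within the untreated range. The WT mean of 78.8 ± 4.97 and the KO mean of 79.3 ± 2.25 (SD, n = 2 clones) differed by -0.476 points, the smallest difference of the 6 (exact permutation p = 1).

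ACD is also short and lies on chromosome 16 (minus strand, gene at 67657512-67660810, 3299 bp), head to head with PARD6A, a cell polarity gene whose start site at 67660946 fell in the strongest peak in 7 lists. In the direction of ACD transcription there were 2 openings. The upstream opening had its summits between 67660842 and 67660906, and the other, called here the start-site opening, between 67660292 and 67660343. They were called as separate peaks in 6 lists and as 1 merged peak in WT_IFNg replicate 2 and KO_IFNg replicate 1. The upstream opening was the stronger in every list with both but KO_untreated replicate 1, where the start-site opening stood at 74.6 and the upstream one at 74.3. The strongest ACD peak stood at 83.8 and 86.9 in untreated WT, 80.8 and 95.6 in WT with IFNγ, 74.6 and 78.6 in untreated KO, and 86.4 and 87.8 in KO with IFNγ. The 2 untreated KO values were the lowest, and the values with IFNγ overlapped between genotypes. With lists of equal length, untreated KO_C5 was still the lowest (70.8), but untreated KO_D2 (78.6) was above untreated WT_5 (76.9). The share of the tested genes with such an order was not counted. The clone means averaged 86.8 ± 6.31 for WT and 81.9 ± 1.89 for KO (SD, n = 2), a difference of 4.93 points (exact permutation p = 0.667).

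POT1 is on chromosome 7 (minus strand, gene at 124822386-124929983, 107598 bp), with its summits within 15 bp of a start site and its peak shared in all 8 lists with the antisense gene POT1-AS1. It was the most variable of the 6, with a range of 39.2 points. POT1 stood at 59.0 in WT_4 and 87.4 in WT_5 untreated, and at 57.9 and 91.9 with IFNγ. In KO it stood at 52.7 in KO_C5 and 81.8 in KO_D2 untreated, and at 90.9 and 90.5 with IFNγ. The 3 low values came from the libraries in which the TINF2 summit sat downstream, both of WT_4 and untreated KO_C5. In fragments over the summit, those 3 held 42, 33 and 29, and the other 5 held 68 to 133. The same 3 libraries were below the other 5 for 12.3% of the tested genes. No other shelterin gene showed that split, while 6 of the 17 telomere partner genes described further on did: TNKS, DCLRE1B, ERCC1, ERCC4, NBN and HMBOX1. The 3 libraries were chosen from the POT1 values, so these counts are a description. The WT mean of 74.0 ± 22.05 and the KO mean of 79.0 ± 10.1 (SD, n = 2 clones) differed by -4.94 points, less than the spread between clones (exact permutation p = 1). Its direction rested on WT_4: without that clone, WT exceeded KO by 10.7 points, and without KO_D2 by 2.23.

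**Figure D2:**
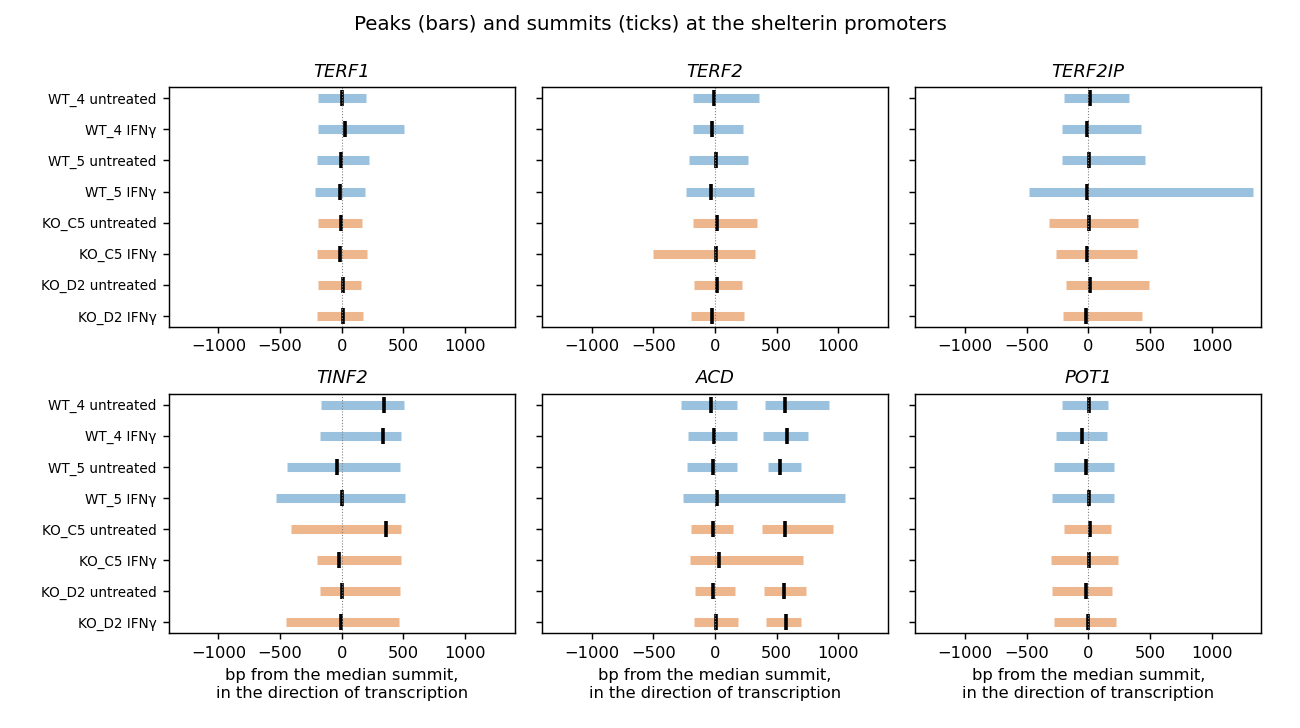
Extent of the strongest promoter peak, or of both openings for ACD (bars), and the summits (black ticks), in bp from the gene's median summit in the direction of transcription (x axis), for the 8 libraries (y axis), WT in blue and KO in orange. The weaker downstream peak of TERF2IP, called separately in some lists, is not drawn. The summit of TINF2 sat downstream in 3 libraries, ACD had 2 openings that merged in 2 libraries, and the summits of the other 4 genes stayed in place.

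Ordered by their mean over the 8 libraries, the genes stood at 90.8 for TERF1, 89.4 for TERF2IP, 85.7 for TERF2, 84.3 for ACD, 79.0 for TINF2 and 76.5 for POT1. Neighbours in this order differed by less than the SD of their difference over libraries, except ACD and TINF2. ACD exceeded TINF2 by 5.28 points (SD of the difference 3.97, n = 8) and was higher in 7 of 8 libraries. TERF1 exceeded TERF2IP in 6 libraries and TERF2 exceeded ACD in 4. POT1 was the lowest of the 6 in both WT_4 libraries and in untreated KO_C5, but not in the other 5 libraries.

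For the comparison of genotypes, 0 of 6 shelterin genes had all WT percentiles above all KO percentiles, against 6.76% of the tested genes. The reverse, all KO above all WT, held for 0 of 6 and for 0.298% of the tested genes. The mean difference was above 0 for TERF1, TERF2IP and ACD and below 0 for TERF2, TINF2 and POT1. Its median was 0.187 points over the 6 genes and 3.50 points over the tested genes, of which 78.1% were higher in WT. The adjusted p was 1 for all 6 genes (Benjamini-Hochberg over 10392 genes, exact permutation test), and no tested gene passed, with 0 genes at an unadjusted p under 0.05, since the design does not reach it. With every list cut to the 16730 strongest peaks, ACD alone stayed above 0 (3.81 points), TERF1 (-0.0829) and TERF2IP (-0.536) turned below 0, and the median was -3.54 points over the 6 genes. Under that setting 52.5% of 9399 tested genes were higher in WT, with a median of 0.258.

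**Figure D3:**
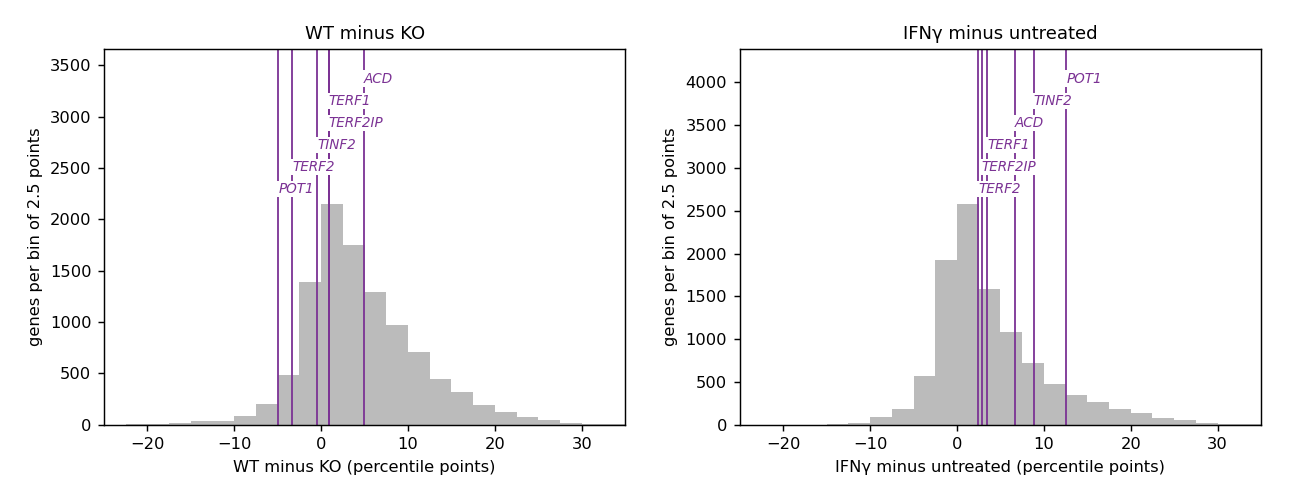
Number of tested genes (y axis) by difference of mean promoter percentile (x axis, points, bins of 2.5), WT minus KO on the left and IFNγ minus untreated on the right, with the shelterin genes as purple lines. The shelterin genes lie between -4.94 and 4.93 for genotype and between 2.44 and 12.6 for IFNγ. The medians of all tested genes were 3.50 and 2.25 points.

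IFNγ treatment gave a mean difference above 0 for all 6 genes, as for 73.1% of the tested genes, although with lists of equal length TERF2 fell to -0.373 points and in log2 fold TERF2 (-0.019) and TERF2IP (-0.010) were below 0. The median was 5.06 points over the 6 and 2.25 over the tested genes. TINF2 was at 74.6 ± 2.21 in the untreated libraries and at 83.5 ± 5.48 with IFNγ (SD, n = 4 each), a difference of 8.85 points with an exact permutation p of 0.0571. That test ignores the pairing of libraries by clone. With the clone as a block, the exact sign-flip p of TINF2 was 0.125, the smallest that 16 flips allow. POT1 differed by 12.6 points (70.2 ± 17.0 untreated, 82.8 ± 16.6 with IFNγ, exact permutation p = 0.2). ACD differed by 6.66 points (exact permutation p = 0.171). TERF1 differed by 3.46 (p = 0.486), TERF2IP by 2.85 (p = 0.514) and TERF2 by 2.44 (p = 0.429), by the same exact permutation test. The smallest p that 4 libraries against 4 allow is 0.0286. The adjusted p was 1.00 for each gene, so none passed, and none of the tested genes did either, although 100 had an unadjusted p under 0.05. All IFNγ percentiles were above all untreated ones for 0 of 6 shelterin genes and 0.895% of the tested genes, and below them for 0 of 6 and 0.0674%.

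Within clones, the IFNγ library of KO_C5 and that of KO_D2 were above their untreated partners for all 6 genes, which was so for 57.0% of the tested genes. In all 4 clones, TERF2, TERF2IP and TINF2 were higher after IFNγ, against 16.3% of the tested genes. The change of TINF2 was 1.41 points in WT_4, 9.23 in WT_5, 14.5 in KO_C5 and 10.2 in KO_D2. TERF2IP moved by 2.36, 1.48, 2.21 and 5.37 points in the same order, and TERF2 by 5.69, 1.94, 0.979 and 1.16. TERF1, ACD and POT1 were lower after IFNγ in WT_4 alone, by -7.24, -2.95 and -1.03 points, and the median tested gene moved by -2.82 points in that clone. The largest step was that of POT1 in KO_C5, 38.2 points, where the median tested gene moved by 2.52. The IFNγ lists were longer than the untreated ones in WT_5, KO_C5 and KO_D2 and shorter in WT_4, so the changes were taken again with every list cut to the same length. TINF2 (5.85, 10.1, 10.9 and 1.999 points in WT_4, WT_5, KO_C5 and KO_D2) and POT1 (5.71, 4.00, 39.6 and 4.09) were then higher after IFNγ in all 4 clones, against 9.32% of the tested genes. TERF2 was then lower in 3 clones and TERF2IP in KO_D2. Both KO clones were higher for TERF1, TINF2, ACD and POT1 at equal length, against 25.2% of the tested genes, and the mean was higher after IFNγ for 5 of 6 genes against 37.6%. The median was 4.36 points over the 6 genes and -1.46 over the tested genes. TINF2 was higher after IFNγ in every clone by percentile in both settings, but its fold was lower in WT_4 (31.1 untreated, 24.2 with IFNγ) and in KO_D2 (21.1 and 20.2). POT1 was higher in every clone at equal length only, and its fold was lower in WT_4 (20.0 untreated, 16.9 with IFNγ). Its summit pileup over the library's lowest background was lower in WT_4 (64.1 and 53.2) and in KO_D2 (109 and 98.3). WT_5, which had the longer lists, was above WT_4 both untreated and after IFNγ for all 6 genes, as for 60.2% of the tested genes. At equal length this held for TERF1, TERF2IP and POT1 only, against 30.9% of the tested genes.

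Fold enrichment, the height of a summit over its local background, ran from 16.1 (POT1 in KO_untreated replicate 1) to 84.4 (TERF2IP in WT_IFNg replicate 2). ACD was the only shelterin gene with a fold higher in all WT than in all KO libraries, a split seen in 23.6% of the tested genes. In WT its fold was 46.5 and 31.2 untreated and 29.7 and 66.7 with IFNγ. In KO it was 24.6 and 22.1 untreated and 23.6 and 21.3 with IFNγ. The difference of 20.6 in fold had an exact permutation p of 0.333, the smallest possible, and an adjusted p of 0.533. For the upstream opening alone, the folds ran from 29.7 to 66.7 in WT and from 20.6 to 23.6 in KO, whereas the start-site opening overlapped between genotypes, at 11.8 to 29.2 and 10.3 to 24.6 in 3 libraries each. The reverse split, all KO above all WT, was seen in 0 of 6 genes and 0.00962% of the tested genes.

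The local background itself, relative to the lowest background of each library, differed between genotypes over most genes. It was higher in all KO than in all WT libraries for 86.3% of the tested genes, with a median of 3.09 in KO and 1.71 in WT. TERF1 (2.03 to 2.59 in WT, 3.52 to 3.89 in KO), TERF2IP (1.20 to 1.21 and 2.38 to 2.43), TINF2 (2.03 to 2.74 and 3.01 to 3.71) and ACD (2.15 to 2.37 and 2.91 to 6.04) followed it. TERF2 and POT1 showed the opposite, at 3.02 to 3.32 in WT against 2.77 to 2.97 in KO for TERF2, and 1.51 to 1.76 against 1.21 to 1.48 for POT1. All WT above all KO was the case in 3.04% of the tested genes. Each of these splits had an exact permutation p of 0.333, the smallest possible, and an adjusted p of 0.349. Set over the library background instead, the summit pileup of ACD ran from 104 to 229 in WT and from 104 to 168 in KO, so the genotypes overlapped on that scale. Fold and percentile both use the local background, and its part in the differences of TERF2 and POT1 between genotypes was not tested.

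**Figure D4:**
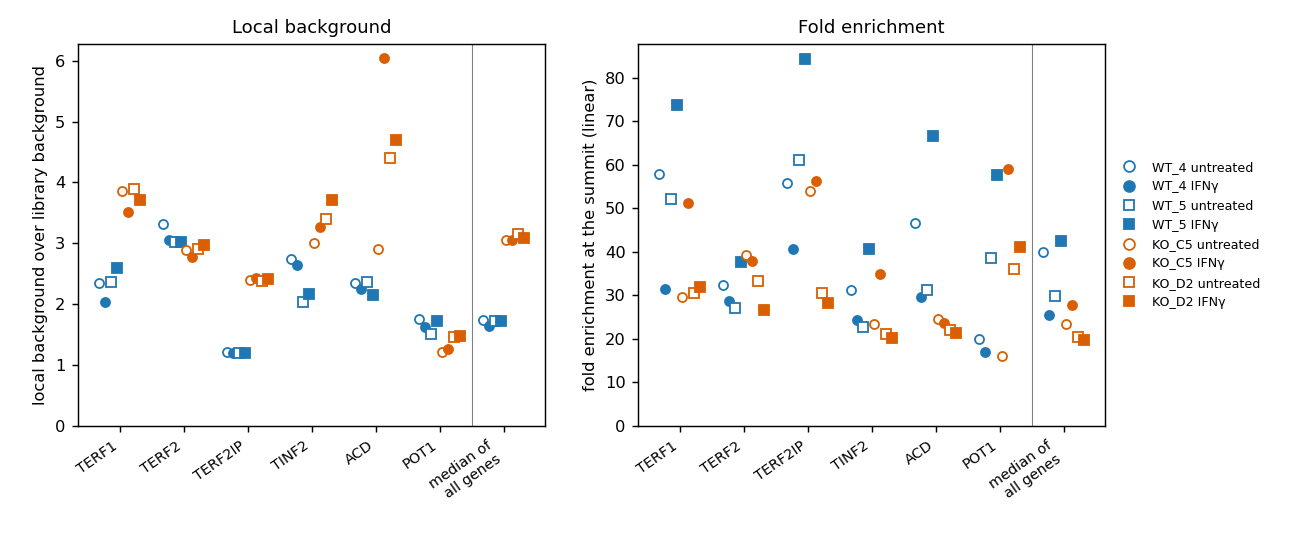
Local background over library background (left) and fold enrichment at the summit (right), both on linear y axes from 0, for each shelterin gene and the median of the 10392 tested genes (x axis), with 1 point for each library. KO points lie above WT points on the left for 4 genes and for the median, and below them for TERF2 and POT1; on the right, ACD alone has every WT point above every KO point.

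Peak width overlapped between the genotypes for all 6 genes and ran from 323 bp (ACD in KO_untreated replicate 2) to 1813 bp (TERF2IP in WT_IFNg replicate 2). The median width was 398 bp for TERF1, 430 bp for ACD, 487 bp for POT1, 494.5 bp for TERF2, 665.5 bp for TERF2IP and 788.5 bp for TINF2. The widest ACD peak, 1309 bp, was the merged one of WT_IFNg replicate 2. The widest TERF2IP peak, from the same library, also covered the stretch of the weaker peak downstream. The widest TERF2 peak, 825 bp, came from KO_IFNg replicate 1.

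In the gene bodies and 10 kb to either side, the peaks of the 8 lists merged into 16 regions, 10 of them beyond the promoter peaks. TERF1, over 39268 bp, and POT1, over 107598 bp, had no peak in any library apart from the promoter. TERF2 had 1 intronic peak, at chr16:69396128-69396366, in 1 library at the 29.4 percentile. TERF2IP had 2 intronic regions, chr16:75649323-75649624 in 2 libraries and chr16:75689606-75690004 in 1 library at the 4.07 percentile. Its weaker downstream peak was merged into the promoter region. The region near TINF2, at chr14:24232105-24232848 in the 4 libraries with the longest lists, lay at a start site of GMPR2. The 6 regions around ACD lay at its neighbours CARMIL2, ENKD1 and C16orf86. Of these, chr16:67652619-67653789 at CARMIL2 and chr16:67666129-67667237 at ENKD1 were in all 8 lists. Of the 16 regions, 8 were in all 8 lists and 5 in a single library.

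Of 19 telomere partner genes, 17 had a promoter peak in all 8 lists. The 19 were tankyrases and nucleases, the CST and MRN complexes, and other proteins that bind telomeric repeats. ZBTB48, the gene knocked out in KO, was among the 17 and was 11.4 points higher in WT. Its percentiles overlapped between genotypes, but its fold was higher in all WT than in all KO libraries, as in 23.6% of the tested genes. MRE11, the nuclease of the MRN complex, had no called peak in WT_untreated replicate 1. ZNF827, which binds telomeres of cells without telomerase, had none in either untreated KO library nor in KO_IFNg replicate 2. Where called, its peak was weak, at the 15.3 to 46.1 percentiles in WT and 27.1 in KO_IFNg replicate 1. The share of all protein-coding genes with such a split was not counted. All WT above all KO held for 1 of the 17, against 6.76% of the tested genes. This was RAD50, the ATPase of the MRN complex, with 76.1, 77.8, 74.5 and 87.1 in WT against 70.1, 69.6, 67.7 and 74.3 in KO. All IFNγ above all untreated also held for 1 of the 17, against 0.895% of the tested genes. This was TEN1, a subunit of the CST complex, at 89.0 to 94.5 with IFNγ and 69.3 to 86.3 untreated. The median over the 17 was 2.64 points for WT minus KO and 3.91 points for IFNγ minus untreated.

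By Pearson correlation of the percentile over the 8 libraries, the tested gene most like TERF1 was RGS3 (r = 0.995), that most like TERF2 was MYL12A (0.980), and that most like TERF2IP was USO1 (0.989). TINF2 was most like FGFBP3 (0.963), ACD most like ZNF774 (0.985) and POT1 most like PNN (0.998). Each was picked as the highest of 10392 genes over 8 points that share library depth and list length, so these values are a description. Among the shelterin genes themselves, r ran from 0.216 for TERF2 with ACD to 0.879 for TERF1 with POT1. Like POT1, PNN was lowest in WT_4 and untreated KO_C5, at 59.4 to 64.5, and stood at 86.0 to 98.8 in the other 5 libraries.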

How the data were processed

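FAIRE-seq was done on 8 libraries, 1 for each of 4 U2OS clones untreated and with IFNγ. According to the study's methods and the submitters' processing notes, the authors trimmed paired-end reads with Trimmomatic, mapped them to GRCh38 with Bowtie2 2.2.5, removed reads of mapping quality under 30 with SAMtools 1.14 and called peaks with MACS2 2.2.7.1. It is not given in the sources used here whether input DNA was the control for the calls. The deposited lists give the fold enrichment of a summit, a linear ratio of (pileup + 1) to (local background + 1), with its −log10 p and −log10 q, as the authors' peak caller wrote them. Read totals were not used here, so depth is known only from the peaks.

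A promoter peak was the one with the highest −log10 p of those with any base within 1 kb of a start site of a protein-coding gene (GENCODE 44). Fragments over a summit and the local background were solved from fold and p, and the library background was the lowest local background of a list. Genotypes were compared by an exact two-sided permutation test over 6 assignments of the 4 clone means, and treatments over 70 assignments of the 8 libraries, with Benjamini-Hochberg adjustment over 10392 genes. Nothing says whether the libraries came from separate cultures, so p-values measure only the spread between these clones and libraries. The clone name in the labels pairs an untreated library with an IFNγ library. Their deviations from the group means, correlated over genes, gave r = 0.641 in WT and 0.428 in KO.

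The members, the 19 partner genes and the rules were chosen with earlier results of these data known. Named beyond the members were partner genes whose groups did not overlap or that lacked a peak in a list, genes sharing a member's peak, and the gene most like each member. Windows to print were set by the genotype difference. The POT1 split, the TERF2 order without the longest list and the TINF2 and ACD summit positions were chosen after their values were seen. So were the changes at equal list length within clones. The functions were tested on simulated data (Python 3.11.15, numpy 2.4.6, pandas 2.3.3, scipy 1.17.1, matplotlib 3.10.9). Alternatives were other lists, windows, measures and ranks, leaving out each clone or library, and the replicate block. Some marker genes are not reported here.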

Additional observations from a re-analysis of the deposited data

Results flagged for a closer look

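In 72 sets of 4 libraries (each measure of each gene, within a genotype or a treatment), 9 held a library that stood apart from the other 3 by Dixon's test. Its nominal rate is about 1 set in 20. Each value entered a set by genotype and a set by treatment, and the sets share library depth. The count of 9 therefore cannot be set against that rate. The TERF1 and TERF2IP widths given below were each counted in both sets. In percentile, TERF2 stood low in WT_4, at 77.9 untreated against 86.3 to 87.3 in the other untreated libraries and at 83.6 with IFNγ against 87.5 to 88.2. With lists of equal length, WT_4 with IFNγ was at 81.5, inside the 73.6 to 81.6 of the other IFNγ libraries, and untreated WT_4 was still the lowest, at 71.3 against 75.8 to 86.4. POT1 stood low in WT_IFNg replicate 1, at 57.9 against 90.5 to 91.9 in the other IFNγ libraries. In fold, TERF1 stood high in KO_IFNg replicate 1, at 51.3 against 29.7 to 32.0 in the other KO libraries. In width, TERF1 stood out in WT_IFNg replicate 1, at 697 bp against 392 to 427 bp in WT and 371 to 413 bp with IFNγ. TERF2IP stood out in WT_IFNg replicate 2, at 1813 bp against 526 to 678 bp in WT and 639 to 657 bp with IFNγ. That peak also covered the stretch of the weaker downstream peak that other lists called separately. ACD stood out in the same library, at 1309 bp against 394 to 450 bp in WT.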

How the results depend on the processing

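Of 200 alternative values, 185 kept the direction of the reported value and its side of the threshold, and 15 reversed. Many of the 200 could not or did not differ, so this count overstates how far the results were tried. The replicate block leaves each difference as it is. A window of 500 bp and the rule of a summit within 1 kb gave the reported differences for all 6 genes. The genotype values could not change side, since their p cannot be below 0.333. None passed, the lowest adjusted p being 0.545 by exact permutation. With lists of equal length, TERF1 (-0.0829 points) and TERF2IP (-0.536) reversed for WT minus KO and TERF2 (-0.373) for IFNγ. In log2 fold enrichment, TERF2 (-0.019) and TERF2IP (-0.010) reversed for IFNγ and TINF2 (0.25) for WT minus KO. In log2 pileup over library background, chosen after seeing the data, TERF2 (-0.094) and TERF2IP (-0.038) reversed for IFNγ. Leaving out 1 clone, WT minus KO ran from -4.94 to 6.65 points for TERF1 (below 0 without WT_5), from -4.56 to 6.26 for TERF2IP (below 0 without WT_5 or KO_D2), from -3.99 to 3.04 for TINF2 (above 0 without WT_4 or KO_C5), and from -20.5 to 10.7 for POT1 (above 0 without WT_4 or KO_D2). With the clone as a replicate block, the IFNγ differences of TERF2 (2.44), TERF2IP (2.85) and TINF2 (8.85) had an exact p of 0.125, the smallest that 16 sign flips allow, and the block changed no call. WT and KO clones share replicate numbers, but nothing else in the labels links them. Their deviations correlated at r = 0.412 untreated and -0.161 with IFNγ, which cannot tell whether the numbers are a pairing. The genotype p under a block on the numbers cannot be below 0.5. All 6 genes had a promoter peak in all 8 lists under each of 6 alternatives for presence. The start-site opening of ACD on its own gave no comparison, since it was merged in 2 lists. The design of 2 clones a genotype and the depth of single lists limit what could be detected.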
